A study of Mus musculus with 8 samples.

Results

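Integrins are adhesion receptors of the cell surface, each made of 1 alpha chain and 1 beta chain, and the pairing sets what the receptor binds. On naive T cells they slow the cell in the high endothelial venules, hold it to antigen-presenting cells and guide it through lymph nodes and mucosa. FURIN, the protease that the Furin KO mice are labelled as lacking, cuts precursor proteins in the secretory pathway, several integrin alpha chains among them, and it also processes the precursor of TGF-beta, the cytokine that induces the integrin chain CD103. The genes described here are 10 integrin chains, 5 alpha and 5 beta, taken by name from a table of 55573 genes: Itgae, Itgal, Itga4, Itga6 and Itgav, and Itgb7, Itgb2, Itgb1, Itgb3 and Itgb8. Of these, 9 were counted in every library and passed the filter on low counts, and Itgb8 had 0 counts in all 8 libraries.

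The RNA came from CD8+ T cells of spleen and lymph nodes of male C57BL/6 mice, first enriched on magnetic CD8a beads and then sorted as naive. 5 libraries were labelled Furin KO and 3 WT. The mice were 8 weeks old, except for 7 weeks in Furin KO replicate 1 and WT replicate 1. The labels do not state how Furin was deleted, which part of the gene was removed, or whether each library was a separate mouse. The p-values therefore set genotype differences only against the variation between these libraries, part of which may be technical. If libraries shared a mouse, the p-values would be too small for statements about mice. Total counts were 11308220 to 21040431 in the Furin KO libraries and 14463450 to 19159021 in WT. The libraries are also described by 3 library sets, which the labels do not give: an earlier analysis of these same counts found them, and each holds both genotypes. Each set is a run of consecutive numbers in the sample titles. Set 1 holds Furin KO replicate 1 and WT replicate 1, set 2 Furin KO replicates 2 and 3 and WT replicate 2, and set 3 Furin KO replicates 4 and 5 and WT replicate 3. Furin itself had 69.3 ± 11.8 CPM (read counts scaled to library size; SD, n = 5) in Furin KO against 63.6 ± 5.71 CPM in WT (n = 3), so its whole-gene count was no lower in Furin KO, and such counts do not show which exons were read. Every direction given here is therefore between libraries as they were labelled. Summed over 7 markers of naive CD8+ T cells, the level was 9148 to 10687 CPM in Furin KO and 8686 to 10191 CPM in WT. Cd8a, Cd8b1 and Cd3e are among the 7, so that sum alone does not show a naive state. The 5 markers of antigen-experienced CD8+ T cells summed to 385 to 479 CPM in Furin KO and 356 to 431 CPM in WT. Il2rb and Ly6c2 gave nearly all of the latter sum.

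The coding sequences of the chains show where a FURIN-like motif could be read. In the form searched, arginine, any residue, lysine or arginine, then arginine, it occurred in 4 of the 10 chains, all of them alpha chains, and in 24.1% of 21747 mouse protein-coding genes (GENCODE M21 transcripts, GRCm38, taking for each gene the transcript with the longest coding sequence; other isoforms were not searched). CD103, encoded by Itgae, is known to be cut within its extra domain into a light and a heavy chain, and alpha 6, alpha V and alpha 4 are also known to be cut in their extracellular parts. The 4 stretches are shown because they mark which members carry the motif and where in the chain it lies. Each is on the plus strand, 5′ to 3′, with the 4 matching codons in capitals and 18 bases on either side:
Itgae, chr11:73112128-73112175: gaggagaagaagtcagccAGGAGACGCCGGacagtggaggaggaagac
Itga6, chr2:71843300-71845827, across an intron: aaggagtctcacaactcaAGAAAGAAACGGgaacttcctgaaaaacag
Itga4, chr2:79325584-79325631: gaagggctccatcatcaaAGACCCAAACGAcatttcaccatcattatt
Itgal, chr7:127330411-127330458: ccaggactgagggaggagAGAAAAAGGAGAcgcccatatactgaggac
The Itgae match fell at residues 179 to 182 of 1167, near the start of the chain, and the Itga6 match at residues 899 to 902 of 1091. The Itga4 match lay at 971 to 974 of 1032 and the Itgal match at 1173 to 1176 of 1201, both close to the C-terminal end. A match is a string of letters and not a shown cleavage site, and chains without one, such as Itgav, may be cut at other sequences. The search covered whole proteins, so a match may lie in a part of the chain that FURIN does not reach. No match was compared with the known cut sites. None of the counts below report on protein or its cleavage.

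Itgae and Itgb7 encode the 2 chains of alpha E beta 7, the receptor for E-cadherin that holds T cells to epithelium. The level of Itgae (ENSMUSG00000005947, GRCm38 chromosome 11, 73090583 to 73147446, plus strand) was 372, 299, 313, 392 and 363 CPM in Furin KO replicates 1 to 5, against 482, 400.2 and 512 CPM in WT replicates 1 to 3. All 5 Furin KO libraries lay below all 3 WT libraries, and the highest Furin KO value was only slightly below the lowest WT value, which came from set 2. The means were 348 ± 40.0 CPM in Furin KO (n = 5) and 465 ± 58.1 CPM in WT (n = 3), a log2 fold change of -0.42 (SE 0.11, 95% interval -0.65 to -0.19). This did not pass in edgeR (quasi-likelihood test, Benjamini-Hochberg over all 12500 tested genes), with an adjusted p of 0.690 and an unadjusted p of 0.00112, the 19th lowest of all genes tested. Permuting the library labels (exact, two-sided, log2(CPM + 1)) gave p = 0.0179, the smallest that 56 arrangements of 5 and 3 libraries allow. In bulk RNA, fewer cells that express a gene and less RNA per cell cannot be told apart.

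Within each library set Itgae was lower in Furin KO by a similar proportion. The level was 372 CPM in Furin KO against 482 CPM in WT in set 1 (a ratio of 0.771, 1 library each), a mean of 306 CPM in Furin KO against 400.2 CPM in WT in set 2 (0.764), and a mean of 378 CPM in Furin KO against 512 CPM in WT in set 3 (0.737). The sets themselves differed, as set 2 had the lowest Itgae values of both genotypes. Set 2 was also the set low in Fos, an immediate early gene, with 4257 and 1607 counts in its Furin KO libraries and 2768 in its WT library, against 9636 to 22162 counts in the other Furin KO libraries and 11765 and 16786 counts in the other WT libraries. Whether this state had a part in the Itgae values was not tested. With the library set as a factor, edgeR gave Itgae a log2 fold change of -0.40 (SE 0.064) and an adjusted p of 0.00670. The sets were found in these same counts, so this p may be too small. Haspin, a kinase gene without introns, lies within Itgae on the opposite strand and shares no annotated exon base with it, and had 11 to 65 counts in Furin KO and 16 to 71 in WT, beside 4134 to 8227 counts of Itgae in Furin KO and 7029 to 9114 in WT. The strand setting of the counting is not given in the sources used here. Dendritic cells can also carry CD103, and their markers Xcr1, Clec9a and Batf3 had 0 counts in all libraries, while the 5 markers of that list summed to 0 to 2.28 CPM in Furin KO and 0 to 1.24 CPM in WT. The 3 CD4+ T cell markers, Foxp3 among them, summed to 0.439 to 2.52 CPM in Furin KO and 2.19 to 3.36 CPM in WT. Trdc, a marker of gamma-delta T cells, was at 11.9 to 15.6 CPM in Furin KO and 10.3 to 13.3 CPM in WT. Whether other cells had a part in the Itgae values was not tested.

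Itgb7 (ENSMUSG00000001281, chromosome 15, 102215995 to 102231944, minus strand), the beta chain shared by alpha E beta 7 and the gut-homing receptor alpha 4 beta 7, did not follow Itgae. It stood at 1066, 1306, 1126, 1291 and 1232 CPM in Furin KO replicates 1 to 5 and at 1049.6, 1173 and 1128 CPM in WT replicates 1 to 3. The groups overlapped, and the log2 fold change was 0.11 (95% interval -0.08 to 0.29; edgeR adjusted p = 0.9998). Per kilobase of exon, Itgb7 had the highest level of the 10 chains, with 435 ± 37.9 CPM per kilobase in Furin KO (n = 5) and 403 ± 22.6 in WT (n = 3).

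**Figure D1:**
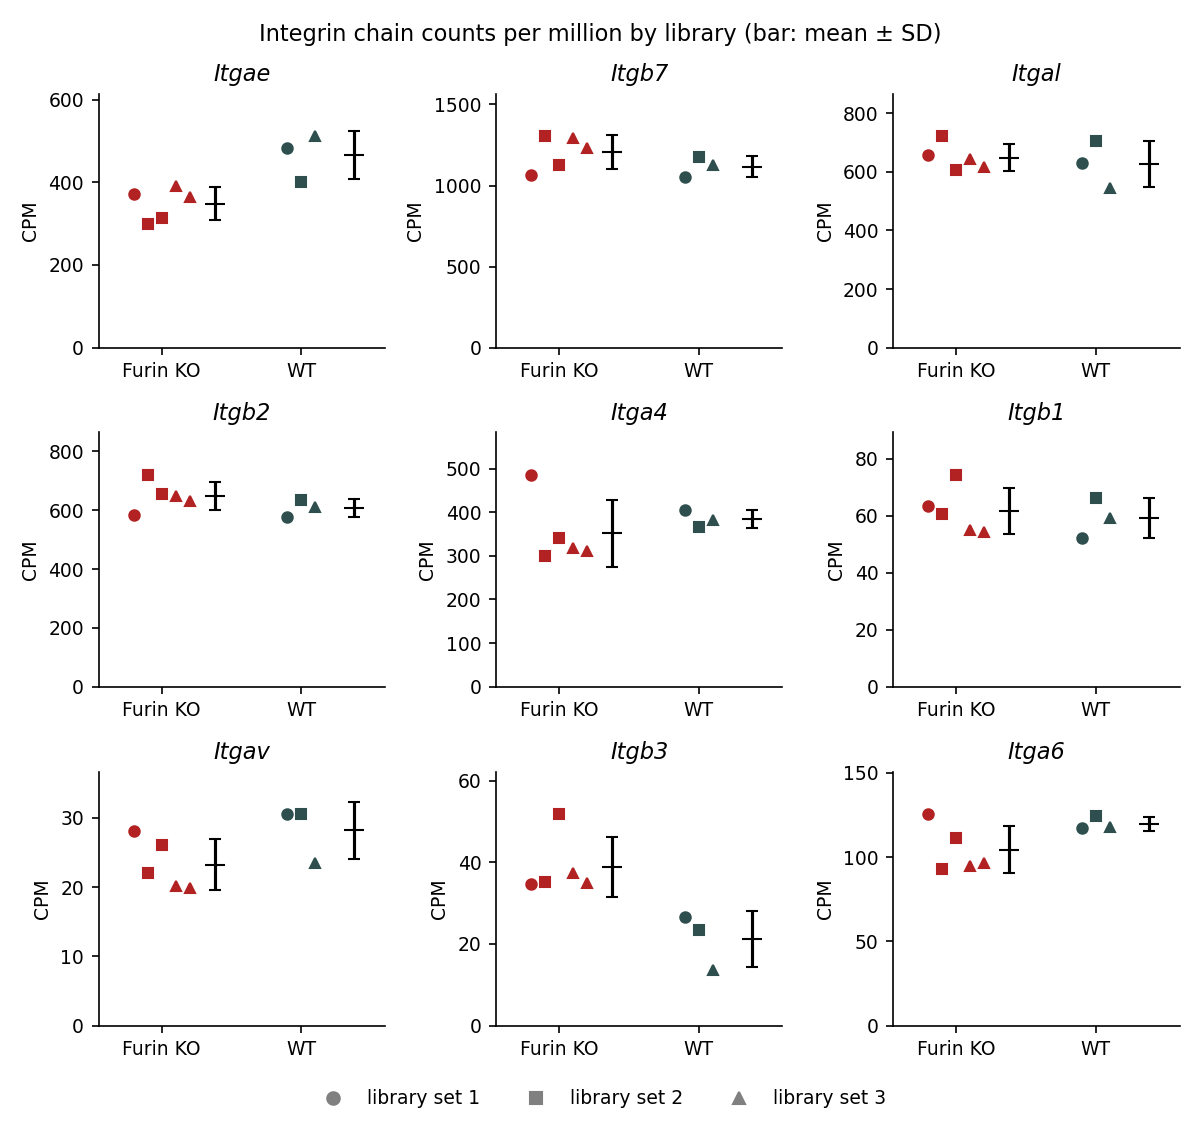
CPM of the 9 detected integrin chains in each library, Furin KO on the left and WT on the right of each panel, with marker shapes for the library set and bars for the mean ± SD. Itgae lies lower in all 5 Furin KO libraries and Itgb3 higher in all 5, and the groups overlap in the other 7 panels.

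Itgb3 encodes beta 3, the partner of alpha V in the vitronectin receptor and of alpha IIb on platelets. The level of Itgb3 (ENSMUSG00000020689, chromosome 11, 104608000 to 104670476, plus strand) was 34.7, 35.3, 51.9, 37.4 and 35.0 CPM in Furin KO replicates 1 to 5, against 26.6, 23.5 and 13.6 CPM in WT replicates 1 to 3. No Furin KO library was as low as any WT library, replicate 3 stood above the other Furin KO libraries, and WT replicate 3 was the lowest of all 8. The means were 38.8 ± 7.36 CPM in Furin KO (n = 5) and 21.2 ± 6.80 CPM in WT (n = 3), which rest on 398 to 971 counts per Furin KO library and 242 to 450 per WT library. The log2 fold change of 0.87 (SE 0.20, 95% interval 0.46 to 1.29) was the largest in size among the 9 tested chains and did not pass in edgeR (adjusted p = 0.406, unadjusted p = 0.000343, the 10th lowest). The exact two-sided permutation p was 0.0179, again the smallest possible.

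Itgb3 was higher in Furin KO within every set, by proportions that differed. The Furin KO level over WT was 1.30 in set 1 (34.7 CPM in Furin KO and 26.6 in WT), 1.86 in set 2 (43.6 and 23.5) and 2.66 in set 3 (36.2 and 13.6), so the spread came mostly from WT. Without WT replicate 3 the log2 fold change was 0.64, with an edgeR adjusted p of 0.99997. DESeq2 called Itgb3 (log2 fold change 0.88, SE 0.20, adjusted p = 0.0162), and so did edgeR once the set was a factor (0.92, SE 0.17, adjusted p = 0.0222). Itgb3 was not called by limma-voom (adjusted p = 0.334) or by edgeR with age as a factor (adjusted p = 0.466). As with Itgae, the sets come from these same counts, so the p with the set may be too small. Beta 3 is abundant on platelets and megakaryocytes. Of the 5 markers of these cells, Pf4, Ppbp, Gp9 and Gp1bb had 0 counts in all 8 libraries. The fifth, Itga2b, which encodes the alpha IIb chain, stood at 3.95 to 8.43 CPM in Furin KO and 6.78 to 7.76 CPM in WT. Whether other cells had a part in the Itgb3 values was not tested.

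**Figure D2:**
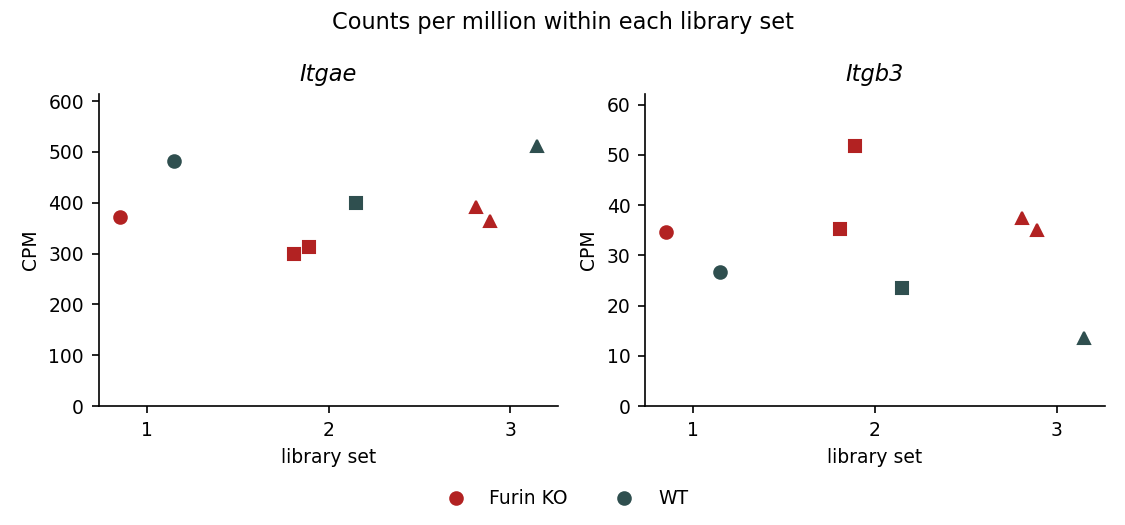
CPM of Itgae and Itgb3 in each library, grouped by library set, with Furin KO left of WT within a set. In every set the Furin KO values of Itgae lie below the WT value and those of Itgb3 above it, with Itgb3 at 13.6 CPM in the WT library of set 3.

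Of the 9 tested chains, 2 (Itgae and Itgb3) had groups that did not overlap, where 2.90% of 12500 tested genes did. The same 2 had an unadjusted p under 0.05 in edgeR, as did 3.21% of all tested genes. In the edgeR fit without covariates 0 of the 9 chains passed an adjusted p of 0.05, and 0.0320% of tested genes did (4 genes). With the library set as a factor 2 of 9 passed, Itgae and Itgb3, against 0.0960% of tested genes. DESeq2 called 1 of 9, Itgb3, and 0.111% of the genes it gave an adjusted p. Without the low-count filter edgeR called 2 of 9, again Itgae (adjusted p = 0.0199) and Itgb3 (adjusted p = 3.11e-05), and 0.190% of 20027 genes. With another filter, a CPM of 1 in 3 libraries, edgeR called 0 of 9 (adjusted p = 0.669 for Itgae and 0.403 for Itgb3). The log2 fold change of Itgb3 was 0.88 in both runs, so its adjusted p depends on the filter. limma-voom also called 0 of 9, as did edgeR with age as a factor. These 10 genes were chosen with such results already known, so the counts describe them and are not independent evidence.

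**Figure D3:**
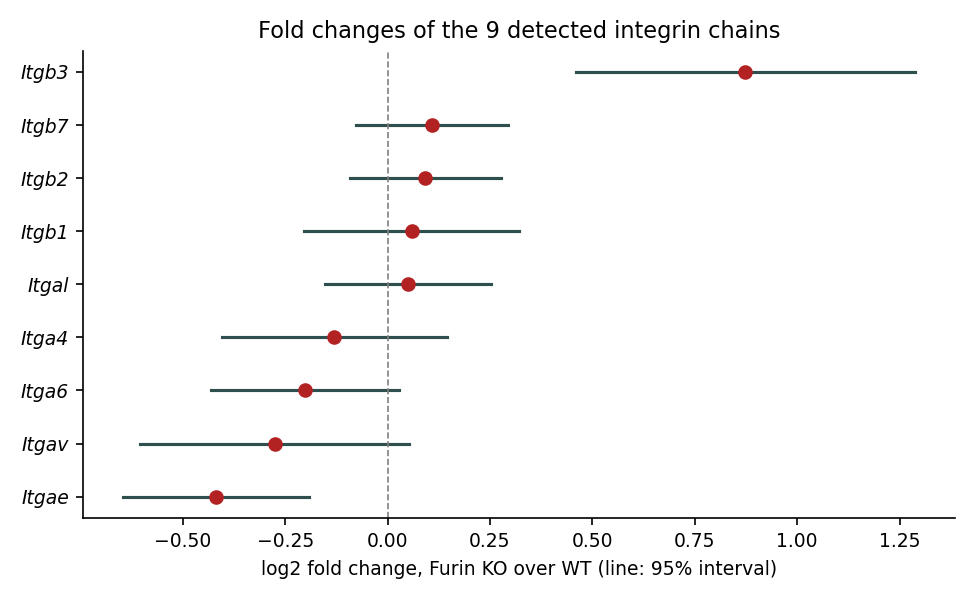
Log2 fold changes of the 9 detected chains, Furin KO over WT, as points with unadjusted 95% intervals from edgeR. The interval of Itgb3 (0.46 to 1.29) lies above 0 and that of Itgae (-0.65 to -0.19) below it, and the other 7 intervals include 0.

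The chains of LFA-1, the receptor that binds ICAM-1 and carries most T cell adhesion, were close between genotypes. Itgal, its alpha L chain (chromosome 7, 127296260 to 127335138, plus strand), had 657, 722, 605, 642 and 615 CPM in Furin KO replicates 1 to 5 and 629, 704 and 546 CPM in WT replicates 1 to 3. Itgb2, its beta 2 chain (chromosome 10, 77530252 to 77565708, plus strand), had 585, 720.04, 654, 649 and 630.3 CPM in Furin KO and 576, 635 and 612 CPM in WT. Both genes spanned overlapping ranges, and in both genotypes the libraries of highest Itgb2 belonged to set 2. The log2 fold change was 0.05 for Itgal (95% interval -0.15 to 0.25) and 0.09 for Itgb2 (-0.09 to 0.28), with an edgeR adjusted p of 0.9998 for each. These intervals leave room for a fold of 0.899 to 1.19 for Itgal and 0.938 to 1.21 for Itgb2.

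Itga4 encodes alpha 4, which pairs with beta 1 to bind VCAM-1 and fibronectin and with beta 7 to bind MAdCAM-1 of gut vessels. This gene (chromosome 2, 79255426 to 79333123, plus strand) had 486, 299.7, 342, 319 and 312 CPM in Furin KO replicates 1 to 5 and 406, 366 and 383 CPM in WT replicates 1 to 3. Furin KO replicate 1 was the highest of all libraries and the other 4 Furin KO libraries were lower than every WT library. Both 7-week libraries were the highest of their genotype, and with 1 of each genotype at that age, age and library set cannot be told apart. The log2 fold change was -0.13 (95% interval -0.40 to 0.15, edgeR adjusted p = 0.9998), and -0.27 without Furin KO replicate 1. Cerkl overlaps the 3′ part of Itga4 on the opposite strand by 1124 annotated exon bases, and had at most 91 counts in a library where Itga4 had 6698.

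Itgb1 (chromosome 8, 128685654 to 128733200, plus strand), the common beta 1 chain of receptors for matrix proteins and VCAM-1, had 63.5, 60.7, 74.3, 55.1 and 54.1 CPM in Furin KO replicates 1 to 5 and 52.0, 66.2 and 59.1 CPM in WT replicates 1 to 3. The groups overlapped throughout (log2 fold change 0.06, 95% interval -0.20 to 0.32, edgeR adjusted p = 0.9998). Itga6, the laminin-binding alpha 6 chain (chromosome 2, 71745616 to 71858416, plus strand), had 126, 92.8, 111, 94.8 and 96.7 CPM in Furin KO and 117, 125 and 118 CPM in WT. As with Itga4, the Furin KO library of 7 weeks was above every WT library and the other 4 were below all of them. Its log2 fold change was -0.20 (95% interval -0.43 to 0.03, edgeR adjusted p = 0.9998).

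Itgav, the alpha V chain, which binds vitronectin with beta 3 and activates latent TGF-beta with beta 8, was among the least abundant of the detected chains, with Itgb3. Itgav (chromosome 2, 83724397 to 83806916, plus strand) had 28.2, 22.0, 26.1, 20.1 and 19.9 CPM in Furin KO replicates 1 to 5 and 30.5, 30.6 and 23.5 CPM in WT replicates 1 to 3. The groups overlapped, with WT replicate 3 below 2 of the Furin KO libraries, and the log2 fold change was -0.28 (95% interval -0.60 to 0.05, edgeR adjusted p = 0.9998). Gm13684, an antisense transcript that shares 634 exon bases with Itgav, had 0 counts. Itgb8 (chromosome 12, 119158022 to 119238802, minus strand), its partner in TGF-beta activation, had 0 counts in every library, so no level or fold is given. With 3 counts per library as the floor, Itgb8 was not detectable at this depth.

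Set in order of CPM per kilobase of merged exon, the chains kept nearly the same order in both genotypes. After Itgb7 came Itgb2 with 212 ± 16.0 in Furin KO (n = 5) and 199 ± 9.75 in WT (n = 3), and then Itgal with 98.7 ± 7.05 in Furin KO and 95.3 ± 12.04 in WT. Itgae stood at 75.9 ± 8.74 in Furin KO and 102 ± 12.7 in WT, below Itgal in Furin KO and near it in WT, and the library ranges of these neighbours overlapped. Itga4 followed with 25.2 ± 5.48 in Furin KO and 27.5 ± 1.43 in WT, then Itgb1 with 15.1 ± 1.99 in Furin KO and 14.5 ± 1.74 in WT. Itga6, with 11.5 ± 1.55 CPM per kilobase in Furin KO and 13.3 ± 0.460 in WT, overlapped Itgb1. Itgb3 had 6.58 ± 1.25 in Furin KO and 3.60 ± 1.15 in WT, and Itgav had 2.16 ± 0.346 in Furin KO and 2.63 ± 0.379 in WT. The ranges of these last chains overlapped across libraries, although Itgb3 was above Itgav in each of the 8. With the length of 1 transcript per gene in place of merged exons, Itga6 would stand above Itgb1, and Itgav above Itgb3 in WT, so no order is drawn between these neighbours.

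Alpha and beta chains were then paired within each library. The ratio of their counts per exon length needs no size factor, since both counts come from the same library, and it is given as a description without a test. The ratio of Itgae to Itgb7 was 0.211, 0.138, 0.168, 0.184 and 0.178 in Furin KO replicates 1 to 5, against 0.278, 0.206 and 0.275 in WT replicates 1 to 3. Both chains moved the ratio the same way, since Itgae was lower and Itgb7 slightly higher in Furin KO. The groups overlapped only between Furin KO replicate 1 and WT replicate 2, which belong to different sets, and in each set every Furin KO ratio was lower than that of WT. The mean was 0.176 ± 0.0264 in Furin KO (n = 5) and 0.253 ± 0.0405 in WT (n = 3).

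The ratio of Itgav to Itgb3 differed most. It was 0.446, 0.343, 0.277, 0.296 and 0.312 in Furin KO replicates 1 to 5 and 0.630, 0.715 and 0.949 in WT replicates 1 to 3, so the groups did not overlap. The mean log2 ratio was lower by 1.19 in Furin KO, since Itgb3 was higher (log2 fold change 0.87) and Itgav lower (-0.28) there. Itgb3 alone already separated the groups, so the separation of this ratio is not a further result. Between 0.134 and 0.168 in Furin KO and 0.151 and 0.223 in WT, the ratio of Itgav to Itgb1 overlapped at Furin KO replicate 1, the highest Furin KO value. For Itga6 to Itgb1 the ratio was 0.676 to 0.894 (median 0.777) in Furin KO and 0.851 to 1.017 in WT, again with only Furin KO replicate 1 inside the WT range. The LFA-1 ratio, Itgal to Itgb2, was 0.4296 to 0.522 in Furin KO and 0.414 to 0.515 in WT. For Itga4 it was 1.34 to 2.23 to Itgb1 in Furin KO and 1.61 to 2.28 in WT, and 0.0455 to 0.0904 to Itgb7 in Furin KO and 0.0618 to 0.0766 in WT. Each of these last 3 ratios had overlapping groups. Within the library sets, every Furin KO library had a lower ratio than the WT library of its set for Itgav to Itgb3, Itgav to Itgb1, Itga6 to Itgb1 and Itga4 to Itgb1, by little for Itga4 to Itgb1 in set 1 (2.23 in Furin KO and 2.28 in WT). For Itga4 to Itgb7 this did not hold in set 1, with 0.0904 in Furin KO and 0.0766 in WT, nor for Itgal to Itgb2 in sets 1 and 3. The pairs that share Itgb1 are not independent of each other. Itgb7 thus exceeded each of its alpha partners per exon length in all 8 libraries, whichever of the 2 length measures tried was used.

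**Figure D4:**
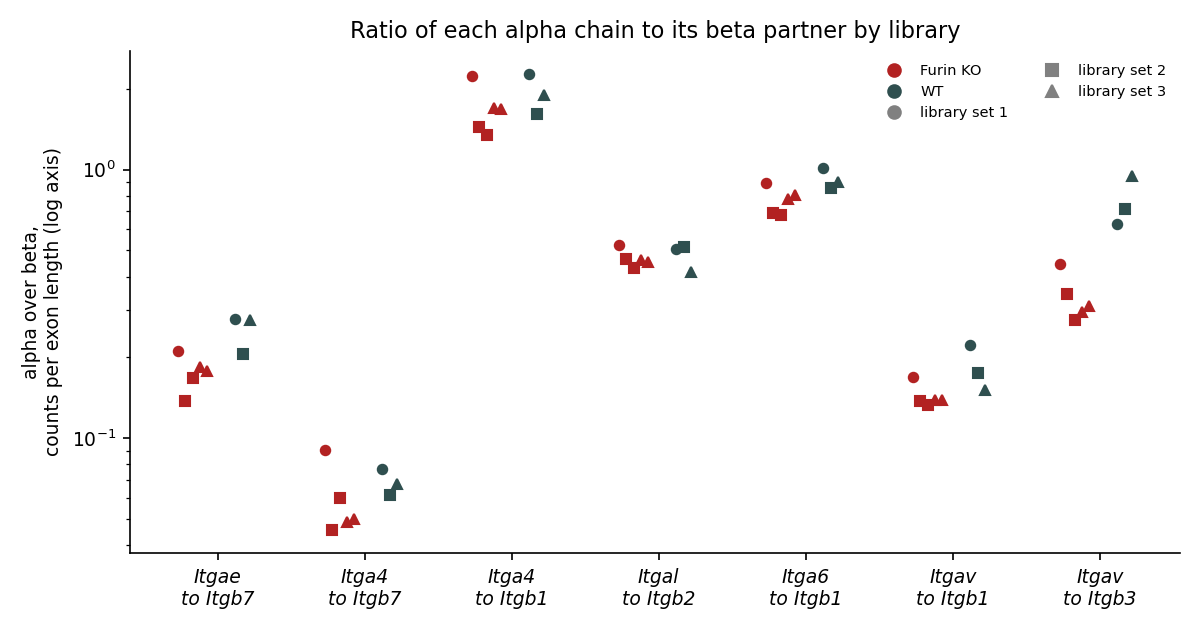
Ratio of each alpha chain to its beta partner in each library, as counts per merged exon length on a log axis, with Furin KO left of WT in each pair. Itgav to Itgb3 separates the groups (0.277 to 0.446 in Furin KO and 0.630 to 0.949 in WT), and Itgae to Itgb7 lies lower in Furin KO apart from Furin KO replicate 1 (0.211) against WT replicate 2 (0.206).

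Of the 16 other integrin chains, 9 passed the filter on low counts, 0 passed the test in either direction, and 4 (Itga1, Itga8, Itga11 and Itgb6) had 0 counts in all libraries. Their median log2 fold change was 0.04, with 6 above 0 and 3 below, beside a median of -0.00 over all 12500 tested genes. Itgad, the alpha D chain known from macrophages, had 1.25 ± 0.967 CPM in Furin KO (n = 5) and 0.173 ± 0.242 CPM in WT (n = 3), at the edge of detection (edgeR adjusted p = 0.9998, unadjusted p = 0.0187). Itga2, the collagen-binding alpha 2 chain, had 4.89 ± 1.80 CPM in Furin KO and 3.17 ± 1.11 CPM in WT. Itga2b had 5.89 ± 1.77 and 7.25 ± 0.489 CPM in Furin KO and WT, and Itgam, the alpha M chain of myeloid cells, 0.542 ± 0.164 and 0.958 ± 0.976 CPM.

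The list for integrin activation and adaptors held 34 genes, of which 30 passed the filter. Its genes differ in role, so their directions do not add up to a direction of integrin activation. 0 passed the test, 9 had fold changes above 0 and 21 below, and the median log2 fold change was -0.06. Over all 12500 tested genes, 6227 were above 0 and 6273 below. Crkl, an adaptor in the pathway to the small GTPase Rap1, had 87.1 ± 5.33 CPM in Furin KO (n = 5) and 102.6 ± 5.45 CPM in WT (n = 3). Its groups did not overlap (log2 fold change -0.24, edgeR adjusted p = 0.9998, unadjusted p = 0.0237). Such separation occurred in 1 of the 30 genes, near the share of 2.90% among all 12500 tested genes. Zyx, a protein of adhesion sites, had 334 ± 30.4 CPM in Furin KO and 389 ± 4.73 CPM in WT (-0.22). Rasgrp1, an exchange factor for Ras downstream of the T cell receptor, had -0.21, and Ptk2, the focal adhesion kinase, -0.35. Tln1, the talin that binds beta chain tails, was at 1033 CPM in Furin KO and 1088 CPM in WT, and the kindlin gene Fermt3 at 418 CPM in Furin KO and 413 CPM in WT. Both were singled out after their values were seen.

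Among 14 genes for integrin ligands and partners, 6 passed the filter and 0 the test, 3 above and 3 below 0. Icam1, the LFA-1 ligand, had 115 ± 16.4 CPM in Furin KO (n = 5) and 107 ± 8.88 CPM in WT (n = 3), and Icam2, another LFA-1 ligand, 78.4 ± 3.93 and 75.4 ± 9.34 CPM in Furin KO and WT. Cdh1, which encodes the CD103 ligand E-cadherin, was at 1.77 ± 0.665 CPM in Furin KO and 3.02 ± 1.501 CPM in WT, and Lamc1, a laminin chain, at 0.531 ± 0.471 and 1.47 ± 0.709 CPM. The list of 11 genes for the TGF-beta signal and for transcription factors known to act on Itgae gave 0 passing the test, 3 above and 8 below 0, with a median log2 fold change of -0.09. Among all 12500 tested genes, 0.0320% passed, 6227 were above 0 and 6273 below. The listed genes differ in role, so their directions do not add up to a direction of the TGF-beta signal. Smad7, an inhibitor that TGF-beta induces, had 153 ± 15.7 CPM in Furin KO and 181 ± 28.2 CPM in WT (log2 fold change -0.25, edgeR adjusted p = 0.9998, unadjusted p = 0.0407). Ski had a log2 fold change of -0.17, Runx1 one of -0.22 and Smad4 one of -0.11. These genes had the lowest p of the list, and the 3 above 0 were Smad3 (0.07), Tgfbr1 (0.05) and Runx3 (0.03).

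The genes whose pattern over the 8 libraries was most like that of Itgae were named as a description, by Pearson's r of log2(CPM + 1) among 8709 protein-coding genes. They were Rundc3b (r = 0.944), Baiap3 (0.943), Sin3b (0.937), Cdyl2 (0.936) and Cuedc1 (0.935). Rundc3b had 24.2 CPM in Furin KO and 27.5 CPM in WT on average, and Cuedc1 16.7 CPM in Furin KO and 21.5 CPM in WT, each without overlap of the groups. In Baiap3, Sin3b and Cdyl2 the groups overlapped. Most like Itgb3 were Ankrd28 (0.930), Tle1 (0.928), Pttg1 (0.917), Apobec1 (0.916) and Pum3 (0.914). Ankrd28 had 60.0 CPM in Furin KO and 45.9 CPM in WT. The 8 points share genotype, set and depth, so these values of r only describe the libraries. The genes were picked for likeness to Itgae and Itgb3, whose groups did not overlap, so any separation of their own is partly built in.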

How the data were processed

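The authors deposited raw whole-number counts per Ensembl gene, 1 column for each of the 8 libraries. Per the submitters' processing notes, FastQC, Trim Galore, STAR and DESeq2 1.24.0 were used with GRCm38. No source used here names the counting program, its annotation, its strand setting or how it handled reads matching several genes. Columns were matched to samples by title, and replicates numbered in accession order. Symbols, exon lengths and transcript sequences came from GENCODE M21 (55480 IDs matched, 93 did not).

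Genotype was tested in R 4.3.3 with edgeR 4.0.16 (limma 3.58.1), using TMM factors, filterByExpr and the two-sided quasi-likelihood test, fitted and adjusted over all 12500 tested genes, after it was tested on simulated data. CPM use TMM-scaled library sizes. DESeq2 1.42.0, limma-voom, other size factors and filters, age, library set, the 8-week libraries alone and each library left out were alternatives; a second length measure was added after the data were seen.

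The members, lists and tests were chosen with earlier results of these data known, and library sets were found in these counts. All 10 members are named, with up to 4 genes per list by lowest p (Tln1 and Fermt3 were added after their values were seen), genes over a member, and the 5 genes most like Itgae and Itgb3. Intervals cover the spread between libraries, and count floors counting error only. Promoter and protein sequences of these genes were not used here.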

Additional observations from a re-analysis of the deposited data

Results flagged for a closer look

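In the 5 Furin KO libraries, 17 sets of values were examined with Dixon's test for a single distant library, and 4 had one, where chance flags about 1 in 20 and so about 0.85 here. Itga4 was at 486 CPM in Furin KO replicate 1 against 299.7 to 342 CPM in the other 4. Itgb3 was at 51.9 CPM in Furin KO replicate 3 against 34.7 to 37.4 CPM. The ratio of Itgav to Itgb1 was 0.168 in Furin KO replicate 1 against 0.134 to 0.139. The total count was 11308220 in Furin KO replicate 5 against 18641969 to 21040431. These sets are not independent, since ratios reuse the counts, and the cause was not tested.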

How the results depend on the processing

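No paired analysis was possible because the labels give no replicate numbers. A blocked fit was possible with the library sets, which come from the counts and not the labels, and it changed the calls: Itgae (edgeR adjusted p = 0.00670) and Itgb3 (0.0222) passed in it. Since the sets were found in the tested counts, p-values of the blocked fit may be too small. Of 350 values recomputed over 38 results, 318 kept their direction and side of the threshold or moved little. The number of genes called over all genes, 4, was 38 without the low-count filter, 14 by DESeq2 and 12 with the library set as a factor, and 3 to 5 with 1 library left out. Of the integrin chains, 0 passed in edgeR without covariates, 2 without the filter, 1 by DESeq2 and 2 with the set, and 0 with any 1 library left out. By limma-voom, with age as a factor and in the 8-week libraries alone, 0 also passed. The same held with a filter on CPM and with other size factors. In edgeR with age, the adjusted p was 0.643 for Itgae and 0.466 for Itgb3. In edgeR on the 8-week libraries it was 0.9995 and 0.456, and by limma-voom 0.653 and 0.334. Itgae passed without the filter (log2 fold change -0.42) and with the set (-0.40). Itgb3 passed without the filter (0.88), by DESeq2 (0.88) and with the set (0.92). With 1 library left out, the log2 fold change ran from -0.52 to -0.34 for Itgae and from 0.64 to 1.07 for Itgb3, the exact permutation p from 0.0286 to 0.0952 for Itgae and from 0.0286 to 0.0476 for Itgb3. For Itgb3 each was the smallest p that the remaining libraries allow. For Itgae that held without Furin KO replicate 2, 3 or 4 or WT replicate 2, and p was above the smallest value, at 0.0571 without Furin KO replicate 1 or 5 and 0.0952 without WT replicate 1 or 3. Itgal ran from -0.037 to 0.14 in the same way, with -0.037 without WT replicate 3. Itgb1 ran from -0.020 to 0.15, with -0.020 without WT replicate 1 and -0.017 without Furin KO replicate 3, and was -0.036 in the 8-week libraries alone, so neither gene has a settled direction. The cause was not tested. The 4 lists gave 0 calls in every alternative run. Over all genes, 0.0320% were called in the edgeR fit without covariates and 0.190% without the filter. At such shares, 0 calls in short lists say little about them. With the length of 1 transcript in place of merged exons, chosen after the data were seen, the mean ratios were, in Furin KO and WT, 0.203 and 0.292 for Itgae to Itgb7, 0.0818 and 0.0951 for Itga4 to Itgb7, 2.25 and 2.58 for Itga4 to Itgb1, 0.657 and 0.675 for Itgal to Itgb2, 1.56 and 1.87 for Itga6 to Itgb1, 0.204 and 0.261 for Itgav to Itgb1 and 0.4996 and 1.14 for Itgav to Itgb3. Length alone thus turns which chain is ahead for Itga6 with Itgb1 and, in WT, for Itgav with Itgb3. The differences between genotypes do not depend on it. Depth limits Itgad, Itgam and Lamc1, at about 1 CPM or less.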
